A study of Homo sapiens with 6 samples.

Results

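MicroRNA (miRNA) host genes are transcription units that carry miRNA hairpins, and 53 of the 58174 genes listed for these libraries bear a name of the form MIR...HG, by which they were chosen. By the type given in the table, 40 of the 53 are lincRNAs, 6 antisense RNAs and 4 processed transcripts. The libraries were made from polyA RNA of A549 cells, an established human lung adenocarcinoma line, harvested 48 h after seeding. Cells labelled as control (Ctrl, n = 3) were compared with cells carrying a CRISPR/Cas9 deletion in the MIR21 locus (MIR21-KO, n = 3), which asks how other miRNA host genes stood once MIR21 was lost. MIR21-KO cells were raised from single sorted cells and the number of clones behind the 3 libraries is not stated, so differences between clones and effects of the deletion cannot be told apart. Abundance is given as FPKM, that is fragments scaled to gene length and library size.

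A miRNA starts as a hairpin within a long primary transcript. DROSHA with DGCR8 cuts the hairpin out of an exon or an intron, XPO5 exports it, DICER1 trims it, and an Argonaute protein uses the mature strand to pair with target RNAs, mainly through its seed, the bases 2 to 8. Cutting an exonic hairpin destroys the spliced transcript, whereas a hairpin in an intron can be cut while the spliced RNA is still made. The polyadenylated host RNA seen here is thus the precursor or a by-product of the miRNA, and no mature miRNA was measured in these libraries.

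By GENCODE 29 (GRCh38, the same assembly as hg38), 81 hairpins overlap 49 of the 53 host genes on the host's own strand, 31 of them in an exon and 50 in an intron. The detected hosts carry 50 of these hairpins, all of which had a mature sequence in RefSeq (GRCh38.p14), giving 88 mature sequences with 70 different seeds. The sequences below are shown for hosts on which the results turn and for families that are spread over hosts, all written 5′ to 3′ with the seed in capitals. The first set belongs to hosts that rose upon MIR21 deletion and to MIR194-2HG and MIR600HG, which were lower in every MIR21-KO library than in every Ctrl library.
miR-31-5p: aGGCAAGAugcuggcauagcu
miR-4435: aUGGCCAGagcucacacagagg
miR-22-3p: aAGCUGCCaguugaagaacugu
miR-146a-5p: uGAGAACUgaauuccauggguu
miR-194-5p: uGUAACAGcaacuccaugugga
miR-600: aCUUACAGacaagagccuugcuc
No seed is shared within that set. The second set shows the seed found in the largest number of hosts, GAGGUAG of the let-7 family, which occurred in 5 detected hosts.
let-7a-5p: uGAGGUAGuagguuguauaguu
let-7b-5p: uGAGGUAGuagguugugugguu
let-7c-5p: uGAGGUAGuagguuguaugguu
miR-4458: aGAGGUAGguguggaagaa
miR-4500: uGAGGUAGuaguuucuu
The third set holds miRNAs known for acting on cell cycle genes. The seed of miR-424-5p is identical to that of miR-195-5p and miR-497-5p from MIR497HG, whereas miR-503-5p, from MIR503HG, has the seed AGCAGCG. The miR-424 hairpin (chrX:134546614-134546711) overlaps MIR503HG only in part. Mature miR-424-5p (chrX:134546680-134546701) lies outside the annotated gene, which ends at 134546632. The pair miR-221-3p and miR-222-3p shares a seed within MIR222HG.
miR-424-5p: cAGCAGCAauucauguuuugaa
miR-195-5p: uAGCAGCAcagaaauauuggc
miR-497-5p: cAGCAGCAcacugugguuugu
miR-503-5p: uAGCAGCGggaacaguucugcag
miR-221-3p: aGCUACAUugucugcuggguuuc
miR-222-3p: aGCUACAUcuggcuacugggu
miR-34a-5p: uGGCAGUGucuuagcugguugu
miR-17-5p: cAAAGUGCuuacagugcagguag

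Of the 53 host genes, 30 had at least 1 read in at least 1 library, 24 had a read in every library, and 23 were listed at 0 throughout. Reads behind the deposited FPKM summed to between 10631667 and 14345209 per library, so that 1 read on 1 kb of exon corresponded to 0.0731 to 0.0930 FPKM. A mean of 0.5 FPKM over the 6 libraries, the minimum for testing, was reached by 17 host genes. MIR100HG reached it only through its MIR21-KO libraries, and MIR600HG and MIR137HG only through their Ctrl libraries. The epithelial keratins KRT7, KRT8, KRT18 and KRT19 averaged 88.3 to 673 FPKM. Their differences of 0.10, -0.23, -0.69 and 0.29 on the log2 scale were not called in the main test. KRT18 was lower in every MIR21-KO library (FDR = 0.0153) and was called lower by voom on the recovered reads (FDR = 0.00277) and in some other alternatives. KRT19 was called only without MIR21-KO replicate 3. NKX2-1, a lung lineage factor, was listed at 0 in every library. The leukocyte gene PTPRC and the endothelial genes PECAM1 and CDH5 averaged at most 0.0237 FPKM. Of the remaining markers, the surfactant genes SFTPB and SFTPC and the fibroblast gene DCN averaged at most 0.0571 FPKM, EPCAM 1.19 and 0.695 FPKM, COL1A1 3.41 and 3.91 FPKM, and LUM 2.11 and 1.88 FPKM in Ctrl and MIR21-KO. CDH1, the epithelial cadherin, was lower in MIR21-KO (8.18 ± 0.584 against 2.86 ± 0.148 FPKM, SD, n = 3, FDR = 0.000175). The part of the CDH1 difference in the values of the host genes was not tested.

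The MIR21 hairpin itself was listed at 0 in all 6 libraries, so the deletion could not be checked on its own row. Its host VMP1, a protein-coding gene of autophagosome formation, read 70.7, 76.8 and 77.8 FPKM in Ctrl and 134.6, 144 and 149 FPKM in MIR21-KO. The VMP1 groups did not overlap, and the difference was 0.92 on the log2 scale (SE 0.0809, FDR = 0.000473). The MIR21 hairpin (chr17:59841266-59841337) lies within the VMP1 gene (chr17:59707192-59842255), so the edit was made in VMP1 itself. The part of the edit in the VMP1 difference was not tested.

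Among the 17 tested MIR...HG genes, 4 rose upon MIR21 deletion at an FDR below 0.01 and 0 fell, as limma called them on log2(FPKM + 0.1). An unadjusted limma p below 0.05 was seen for 8 of the 17, and for 6910 of all 16006 genes. Over all 16006 genes tested, 16% were called, 7.66% as higher and 8.38% as lower. Over the 2753 tested long noncoding genes 7.59% were called, 4.69% as higher and 2.91% as lower. At an FDR below 0.05, which 32% of all genes passed, the host count was also 4. Voom on the recovered reads called 6 hosts, 5 higher and 1 lower, where it called 21.8% of all genes and 10.5% as higher. Its calls beyond the 4 of the main test were MIR100HG and MIR600HG, each of which passed the filter only through its higher group. The log2 fold change was positive for 12 host genes and negative for 5, with a median of 0.32, compared with 0.10 for long noncoding genes and -0.02 for all tested genes. The libraries of the groups did not overlap for 11 host genes, 8 of them higher and 3 lower in MIR21-KO, against 48.1% of all tested genes, 22.8% higher and 25.2% lower. With 3 libraries a group, nothing in the labels says whether they came from separate cultures, so the p-values measure the spread between these libraries only.

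**Figure D1:**
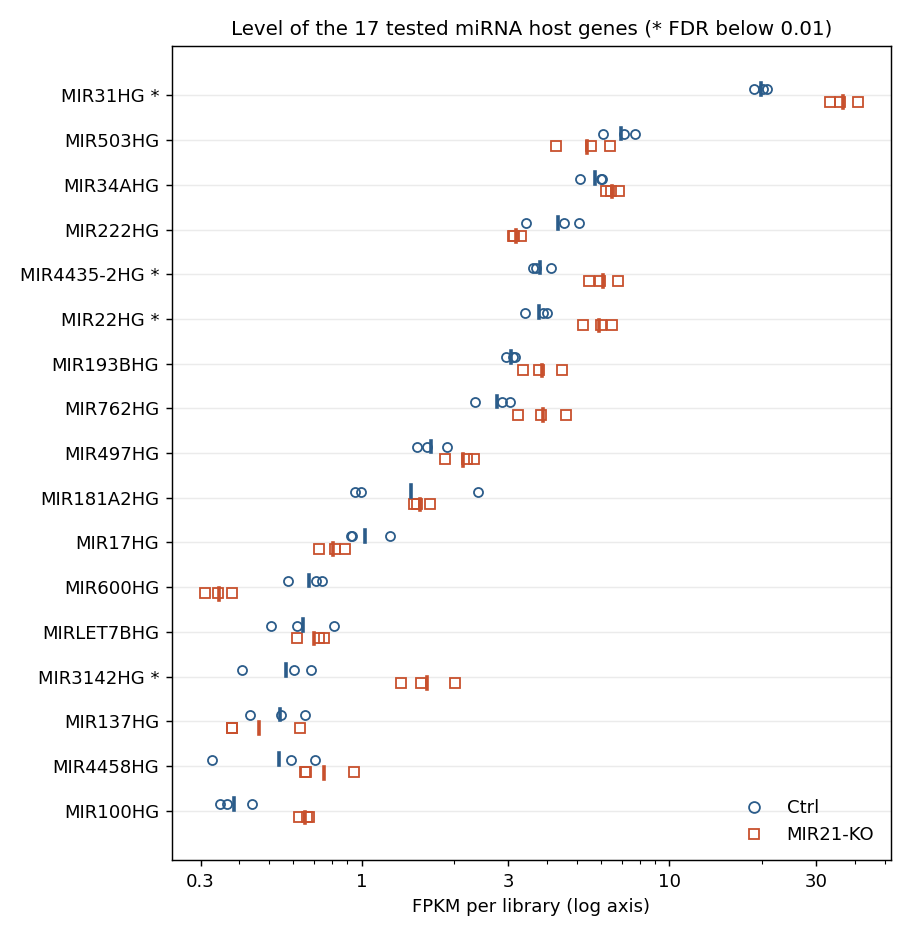
FPKM of each library (log axis) for the 17 tested host genes in the order of their Ctrl mean, with Ctrl as circles, MIR21-KO as squares and short lines for the group means; asterisks mark an FDR below 0.01. MIR31HG lies above all others in both groups, and the MIR21-KO libraries of MIR31HG, MIR4435-2HG, MIR22HG and MIR3142HG all lie to the right of the Ctrl libraries.

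MIR31HG was the most abundant host RNA. This gene on the minus strand of chromosome 9 (chr9:21455642-21559669) carries the hairpin of miR-31, a regulator of cell invasion, in an intron. Its FPKM were 18.8, 20.7 and 20.1 in Ctrl and 35.7, 40.9 and 33.1 in MIR21-KO. All MIR21-KO libraries lay above all Ctrl libraries, with means of 19.9 ± 0.998 and 36.6 ± 3.97 FPKM (SD, n = 3). The rise was 1.84-fold, or 0.87 on the log2 scale (SE 0.0964, FDR = 0.0012). It was the only host gene called under each of the 16 alternatives, with FDRs of 0.000567 to 0.00892. MIR31HG has 745 exon bases, of which 303 (40.7%) lie on the opposite strand of the pseudogene IFNWP19, which averaged 2.92 ± 0.707 and 4.399 ± 0.380 FPKM (FDR = 0.049). The interferon gene IFNE, which lies within the MIR31HG span on the same strand, read 2.29, 3.09 and 3.42 FPKM in Ctrl and 6.87, 6.70 and 8.15 FPKM in MIR21-KO. IFNE was thus higher in every MIR21-KO library and was called (1.29 on the log2 scale, FDR = 0.00216), a call lost without Ctrl replicate 2 or MIR21-KO replicate 2 (FDR up to 0.0121). The nearest tested genes outside the span were KLHL9 (0.07, FDR = 0.798) and AL157937.1 (0.50, FDR = 0.382).

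MIR4435-2HG, a long noncoding RNA gene on the minus strand of chromosome 2 (chr2:111036776-111523376), carries the miR-4435 hairpin in an intron. Its FPKM were 3.61, 4.11 and 3.70 in Ctrl and 6.83, 5.96 and 5.47 in MIR21-KO. The groups did not overlap, with means of 3.81 ± 0.267 and 6.09 ± 0.690 FPKM and a 1.60-fold rise (0.66 on the log2 scale, SE 0.115, FDR = 0.00645). The call was lost without any one of Ctrl replicates 1 to 3 or MIR21-KO replicates 1 and 2, at FDRs of 0.0127 to 0.0315. Part of this gene is shared with a near-identical copy elsewhere on chromosome 2, CYTOR: of the 50-base words in its GENCODE transcripts, 21.6% also occur in CYTOR, so reads of either gene may have been lost or misplaced. CYTOR, looked up for this reason, read 12.6, 14.6 and 12.1 FPKM in Ctrl and 22.7, 18.7 and 16.4 FPKM in MIR21-KO. Every MIR21-KO library of CYTOR was higher as well, but the difference of 0.55 on the log2 scale was not called (FDR = 0.0235). The flanking genes had negative differences, with BUB1, a spindle checkpoint kinase, called lower in MIR21-KO (-0.61, FDR = 0.00315, up to 0.0206 when any Ctrl library or MIR21-KO replicate 2 was left out) and ANAPC1 not called (-0.66, FDR = 0.0269). Of the MIR4435-2HG exons, 727 bases are shared with BCL2L11 on the opposite strand.

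MIR22HG, on the minus strand of chromosome 17 (chr17:1711493-1717174), carries the miR-22 hairpin in an exon. It read 3.89, 3.39 and 4.02 FPKM in Ctrl and 5.24, 6.51 and 5.99 FPKM in MIR21-KO. All MIR21-KO libraries were higher, with means of 3.77 ± 0.329 and 5.91 ± 0.641 FPKM, a 1.57-fold rise (0.63 on the log2 scale, SE 0.120, FDR = 0.0086). The call was lost without any one of Ctrl replicates 1 to 3 or MIR21-KO replicates 2 and 3 (FDRs of 0.0147 to 0.0423), and with FPKM rescaled to total reads (FDR = 0.0148). The nearest tested gene, TLCD2 at 1.055 kb, differed by 0.71 (FDR = 0.0702). On the other side AC130343.1 was at -0.15 (FDR = 0.767), and WDR81, which overlaps the span but no exon on the opposite strand, averaged 4.06 and 5.04 FPKM (FDR = 0.054).

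MIR3142HG, on the plus strand of chromosome 5 (chr5:160438594-160487426), is the host of miR-146a, which damps inflammatory signalling downstream of Toll-like and interleukin-1 receptors. The miR-146a hairpin lies in an exon and that of miR-3142 in an intron. The gene had 12, 17 and 19 reads in Ctrl and 63, 44 and 40 reads in MIR21-KO, or 0.410, 0.687 and 0.604 FPKM against 2.01, 1.56 and 1.34 FPKM. The lowest MIR21-KO library thus had more than the highest Ctrl library, and the rise of 2.89-fold was the largest among tested host genes (1.39 on the log2 scale, SE 0.254, FDR = 0.00768). Its size depends on the pseudocount, from 0.75 with 1 FPKM added to 1.53 with 0.01 FPKM added. It lost its call when Ctrl replicate 1, 2 or 3 or MIR21-KO replicate 1 or 2 was left out (FDRs of 0.0177 to 0.0366). PTTG1, which encodes securin, 9.85 kb away, was lower in MIR21-KO (-0.68, FDR = 0.009), and CCNG1, at 2950 kb, was higher (0.49, FDR = 0.00694). Leaving out any Ctrl library or MIR21-KO replicate 2 ended either call, with FDRs of up to 0.0428 and 0.0379.

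**Figure D2:**
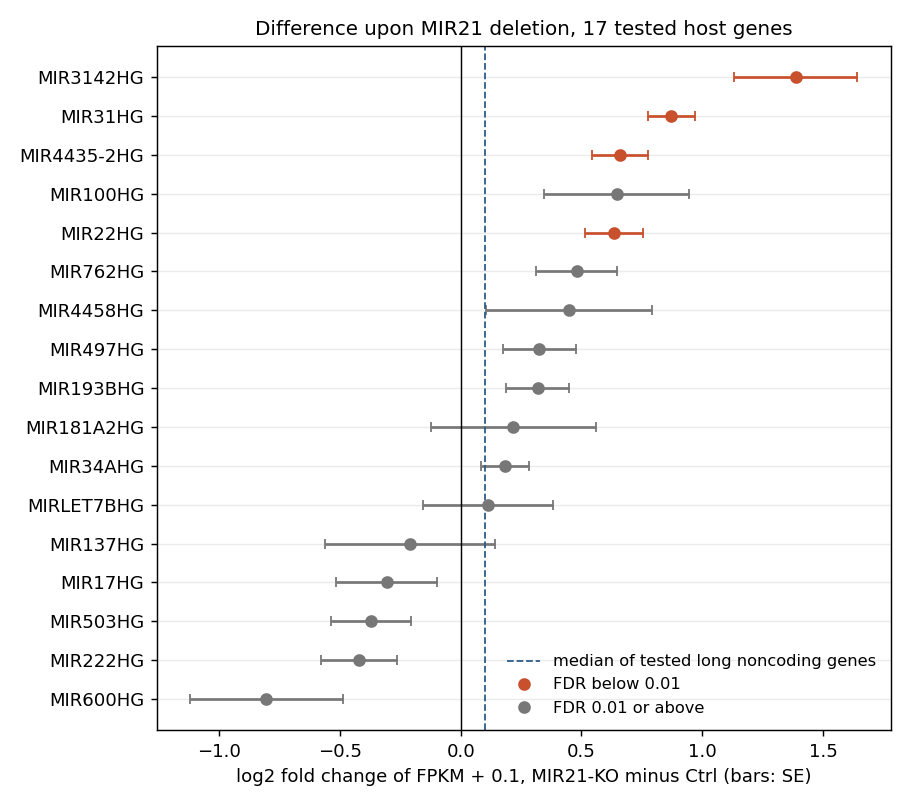
Log2 fold change of FPKM + 0.1 (MIR21-KO minus Ctrl, bars are SE) for the 17 tested host genes, in red where the FDR was below 0.01; the dashed line is the median of 0.10 for all tested long noncoding genes. The 4 called genes lie between 0.63 and 1.39, and MIR100HG, with a wider error, lies among them at 0.65.

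Of the 5 tested hosts of the third sequence set, 0 was called by limma, beside 7.59% of long noncoding genes. By limma 1 (MIR222HG) had an unadjusted p below 0.05, as had 6910 of all 16006 genes. Voom on the recovered reads also called 0, beside 21.8% of all genes. This grouping was not fixed beforehand and is not a full list of hosts of miRNAs that act on the cell cycle. MIR222HG encodes the miR-221 and miR-222 pair, which represses the cell cycle inhibitor CDKN1B, and read 3.41, 5.07 and 4.54 FPKM in Ctrl and 3.14, 3.28 and 3.10 FPKM in MIR21-KO. All its MIR21-KO libraries were lower, but Ctrl replicate 1 lay close to them, and the difference was -0.42 (SE 0.157, FDR = 0.0836). MIR503HG, host of miR-503 and overlapped in part by the miR-424 hairpin, read 6.09, 7.70 and 7.10 FPKM in Ctrl and 6.39, 5.55 and 4.27 FPKM in MIR21-KO, with overlapping groups (-0.37, SE 0.167, FDR = 0.135). MIR497HG, host of miR-195 and miR-497, whose seed recurs in miR-424, read 1.51, 1.89 and 1.64 FPKM in Ctrl and 2.31, 1.87 and 2.21 FPKM in MIR21-KO. Here the sign was positive (0.33, SE 0.152, FDR = 0.148), opposite to that of MIR503HG, and neither difference passed the test. Of the MIR497HG exon bases, 38.2% lie opposite C17orf49.

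MIR34AHG, host of the p53-induced miR-34a, read 5.12, 6.04 and 6.01 FPKM in Ctrl and 6.86, 6.201 and 6.46 FPKM in MIR21-KO. The MIR21-KO libraries were all higher, by a margin that was small against the spread (0.18, SE 0.1, FDR = 0.207). MIR17HG, the MYC-driven host of the miR-17 to miR-92a cluster, has 6 hairpins, all of them in an exon. It read 0.922, 0.932 and 1.24 FPKM in Ctrl and 0.820, 0.725 and 0.883 FPKM in MIR21-KO. The groups did not overlap, at 1.03 ± 0.178 and 0.809 ± 0.0795 FPKM, and the difference of -0.31 (SE 0.209) had an FDR of 0.306.

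The 5 detected MIR...HG hosts of miRNAs with the let-7 seed were all scarce, at or below 0.947 FPKM in every library. Hosts with other names were not searched for this seed. Members of the let-7 family restrain growth genes such as RAS and HMGA2, and their maturation is blocked by LIN28 proteins. MIRLET7BHG, with let-7a and let-7b in an exon, read 0.507, 0.617 and 0.817 FPKM in Ctrl and 0.615, 0.727 and 0.754 FPKM in MIR21-KO. Its groups overlapped (0.11, SE 0.269, FDR = 0.781). MIR4458HG read 0.326, 0.707 and 0.590 FPKM in Ctrl and 0.947, 0.659 and 0.657 FPKM in MIR21-KO, also with overlap (0.45, SE 0.342, FDR = 0.357).

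MIR100HG, on chromosome 11, hosts let-7a together with miR-100 and miR-125b in its introns. It read 0.442, 0.346 and 0.365 FPKM in Ctrl and 0.627, 0.675 and 0.665 FPKM in MIR21-KO, from 41 to 95 reads a library. All MIR21-KO libraries lay above all Ctrl libraries, with a spread of 0.0509 and 0.0256 FPKM (SD) around means of 0.385 and 0.656 FPKM. The main test, whose error estimate follows the trend of genes at this level, did not call the difference of 0.65 (SE 0.299, FDR = 0.146). It was called higher by voom on the recovered reads (FDR = 0.00774) and by limma without trend and robust fitting (FDR = 0.00888). MIR100HG passed the filter only through its MIR21-KO libraries, so these are calls of a gene let in by its higher group.

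Of the let-7 seed hosts below 0.5 FPKM, MIR4500HG had 6, 6 and 3 reads in Ctrl and 12, 13 and 8 reads in MIR21-KO. Scaled for depth this is a ratio of 2.11 with a 95% counting interval of 1.11 to 4.17, and the FDR in a fit without the filter was 0.267. MIR99AHG, whose introns hold let-7c and a further miR-125b, had 5, 2 and 3 reads in Ctrl and 9, 2 and 14 reads in MIR21-KO, with overlapping groups. All 5 hosts thus had a higher mean in MIR21-KO, although the sign for MIRLET7BHG turned without Ctrl replicate 1 (-0.026). Groups overlapped for MIRLET7BHG, MIR4458HG and MIR99AHG, and MIR4500HG and MIR99AHG had at most 14 reads in any library. The median log2 fold change of all tested long noncoding genes was positive as well (0.10). In the main limma fit, which left out MIR4500HG and MIR99AHG, 0 of these hosts was called, beside 7.59% of long noncoding genes. The limma fit without the filter called 0 of the 5, beside 6.16% of all genes. MIR100HG alone had an unadjusted p below 0.05 in that fit, as had 8114 of all 29384 genes. Voom and limma without trend and robust fitting each called 1, MIR100HG, beside 3496 and 1946 of all 16006 genes. LIN28B, which blocks let-7 maturation, read 1.75, 1.36 and 1.35 FPKM in Ctrl and 0.245, 0.340 and 0.565 FPKM in MIR21-KO. LIN28B was lower in every MIR21-KO library (-1.76 on the log2 scale, SE 0.307, FDR = 0.00636), and LIN28A was listed at 0. The LIN28B call was lost without any single Ctrl library or MIR21-KO replicate 1 or 2, at FDRs of up to 0.0354.

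**Figure D3:**
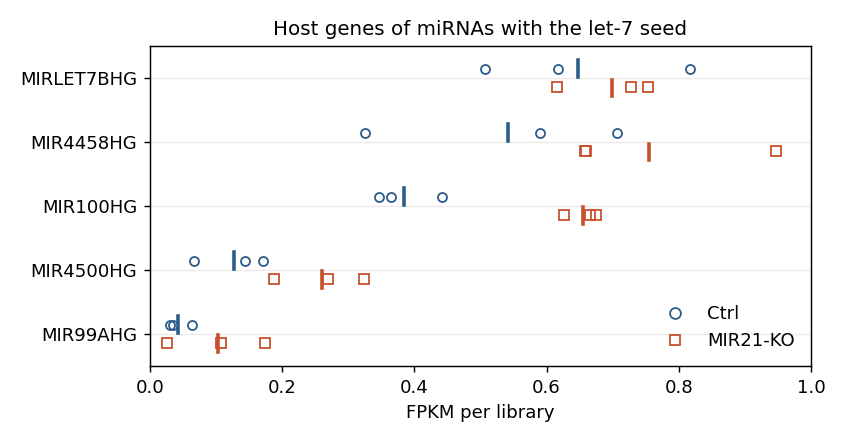
FPKM of each library for the 5 MIR...HG host genes of miRNAs that share the let-7 seed. Ctrl is drawn as circles, MIR21-KO as squares and the group means as short lines. The groups are apart for MIR100HG and MIR4500HG and overlap for MIRLET7BHG, MIR4458HG and MIR99AHG.

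The remaining tested hosts were moderately or weakly expressed. MIR193BHG, host of miR-193b and miR-365a, read 2.93, 3.14 and 3.10 FPKM in Ctrl and 4.48, 3.34 and 3.77 FPKM in MIR21-KO, all higher but not called (0.32, SE 0.131, FDR = 0.110). MIR762HG read 3.03, 2.87 and 2.34 FPKM in Ctrl and 4.61, 3.83 and 3.23 FPKM in MIR21-KO, again all higher and not called (0.48, SE 0.168, FDR = 0.0702). Its exons share 499 bases with BCL7C on the opposite strand, which averaged 9.54 ± 0.835 and 14.5 ± 4.38 FPKM (FDR = 0.094).

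MIR600HG, on the minus strand of chromosome 9 (chr9:123109494-123115477), carries miR-600 in an exon and had the most negative difference among tested hosts. It read 0.709, 0.575 and 0.745 FPKM in Ctrl and 0.380, 0.341 and 0.309 FPKM in MIR21-KO. The groups were well apart, at 0.676 ± 0.0897 and 0.344 ± 0.0356 FPKM, but the difference of -0.80 (SE 0.315) was not called in the main test (FDR = 0.0962). Voom on the recovered reads called it lower (FDR = 0.00964), as did limma without trend and robust fitting (FDR = 0.00764). MIR600HG passed the filter only through its Ctrl libraries, so these too are calls of a gene let in by its higher group. STRBP, which shares 254 of its exon bases on the same strand, moved in the same direction, from 5.42 ± 0.255 to 2.89 ± 0.332 FPKM (-0.89, FDR = 0.002, up to 0.0140 when any Ctrl library or MIR21-KO replicate 2 was left out), and reads of unspliced STRBP cannot be told apart from MIR600HG.

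MIR181A2HG, host of a miR-181a and a miR-181b hairpin, read 0.949, 2.39 and 0.994 FPKM in Ctrl and 1.66, 1.48 and 1.51 FPKM in MIR21-KO. Only 8 to 17 reads a library stood behind these values, and Ctrl replicate 2 alone lay above all others (0.22, SE 0.342, FDR = 0.663). Without that library the difference was 0.62 (FDR = 0.0606). MIR137HG, host of the neuronal miR-137, read 0.654, 0.433 and 0.548 FPKM in Ctrl and 0.379, 0.381 and 0.629 FPKM in MIR21-KO, with overlap (-0.21, SE 0.352, FDR = 0.682), and 494 of its exon bases are shared with DPYD.

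Below the filter, 4 hosts had more than 3 reads in every library of at least 1 group. MIR194-2HG met this only through Ctrl and MIR210HG and MIR4500HG only through MIR21-KO, so that their ratios are those of genes let in by their higher group. MIR194-2HG, on the minus strand of chromosome 11 (chr11:64889560-64893449), carries miR-192 and miR-194, miRNAs typical of liver and gut epithelium, in its exon. It had 19, 26 and 30 reads in Ctrl and 1, 3 and 3 reads in MIR21-KO, so that each MIR21-KO library had far fewer than each Ctrl library. Scaled for depth the level was 11.2-fold lower in MIR21-KO, with a 95% counting interval of 5.18 to 28.8, which covers counting error only. In a limma fit without the filter, where 6.16% of 29384 genes were called, MIR194-2HG was called lower (FDR = 0.00835).

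MIR210HG, host of the hypoxia-induced miR-210, had 1, 8 and 8 reads in Ctrl and 14, 6 and 14 reads in MIR21-KO, and its groups overlapped (ratio 1.91, counting interval 1.04 to 3.65, FDR = 0.437 without the filter). MIR4697HG had 17, 16 and 19 reads in Ctrl and 15, 10 and 8 reads in MIR21-KO, all lower (ratio 0.607, counting interval 0.380 to 0.957, FDR = 0.325). The other 9 detected hosts below the filter had at most 14 reads in any library. Among them MIR155HG, host of a miRNA of activated lymphocytes, had 1 read in all.

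**Figure D4:**
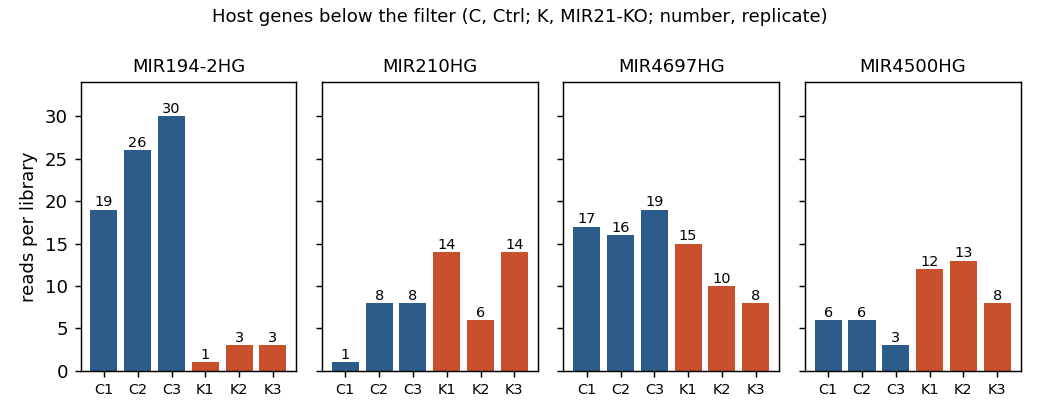
Recovered reads per library of the 4 host genes below the filter that had more than 3 reads in every library of a group (C1 to C3, Ctrl; K1 to K3, MIR21-KO). MIR194-2HG falls from 19 to 30 reads in Ctrl to 1 to 3 reads in MIR21-KO, and the bars of MIR210HG overlap between the groups.

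Hosts that rose were found with either place of the hairpin. Of 10 tested hosts with an exonic hairpin 2 were called and the median log2 fold change was 0.15, and of 7 with intronic hairpins only 2 were called and the median was 0.48, beside the 7.59% called of long noncoding genes. MIR503HG counts among the 10 through the miR-424 hairpin, which only partly overlaps it. The difference between the places was not tested. The table also has a row for each of the 34 hairpins of tested hosts. Of the 19 exonic hairpins 0 had a read in any library, whereas 10 of the 15 intronic hairpins had at least 1. How reads lying in a host exon and a hairpin were counted is not stated. The row of the MIR762 hairpin had 172 reads in Ctrl and 263 reads in MIR21-KO, and each other hairpin of a tested host had at most 15 reads over all 6 libraries. All 83 bases of the MIR762 hairpin lie in an exon of BCL7C on the other strand, and the strand setting used for counting is not stated. Hairpin rows of polyA libraries give no level of the mature miRNA.

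Across the 6 libraries, the log2 levels of MIR4435-2HG and MIR3142HG followed each other most closely (Pearson r = 0.987), followed by MIR34AHG with MIR4458HG (r = 0.959) and MIR22HG with MIR100HG (r = 0.956). The most opposite pair was MIR31HG and MIR600HG (r = -0.938). These values describe 2 groups of 3 libraries, so a difference between the groups alone raises them. Of the 34 tested genes next to a tested host, 3 were called higher and 3 lower, a share close to the 16% called of all genes, and 17 had the sign of their host.

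The deleted miRNA and the host transcripts were compared by sequence to show where a miR-21-5p seed match occurs. The mature strand lies at chr17:59841273-59841294 on the plus strand.
miR-21-5p: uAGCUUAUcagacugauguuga
The reverse complement of its seed, ATAAGCT, was searched on the transcript strand in the longest GENCODE transcript of each gene. It was found in 2 of 17 tested hosts, MIR497HG and MIR17HG, with 1 match each followed by A, and neither was called. Among 2710 tested long noncoding genes 4.61% held the heptamer, but their median transcript of 744.5 bases was shorter than the 3239 bases of the hosts. None of the 4 hosts that rose, MIR31HG, MIR4435-2HG, MIR22HG and MIR3142HG, had these letters in the searched transcript. For MIR4435-2HG that transcript has 3565 bases, whereas the gene has 13094 exon bases over 25 transcripts, so most of its exon sequence was not searched.

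Hosts that are not named MIR...HG were examined for comparison. Of 38 listed protein-coding hosts 34 were tested and 8 were called, 7 higher and 1 lower, with a median of -0.13 on the log2 scale, where 7.66% of all genes were called higher and 8.38% lower. Leaving out Ctrl replicate 3 or MIR21-KO replicate 2 left 1 call each, VMP1, the gene that holds the deleted locus. Leaving out Ctrl replicate 1 or 2 left 3. Besides VMP1, the higher ones were CTDSP1 (0.68) and CTDSP2 (0.67), phosphatase genes with miR-26 hairpins, COPZ2 (1.40), EVL (0.72), SLIT3 (0.93) and GPC1 (0.65). COPZ2, a coat protein gene that hosts miR-152, rose from 4.07 ± 0.568 to 10.98 ± 2.28 FPKM (FDR = 0.00205). MCM7, a replication helicase gene that hosts the miR-25 cluster, fell from 110.6 ± 1.81 to 67.5 ± 5.67 FPKM (-0.72, FDR = 0.00155).

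Of 10 noncoding hosts with other names 6 were tested, 2 rose and 0 fell, with a median of 0.30, where 4.69% of long noncoding genes were called higher. The count was 1 without any single Ctrl library and 0 without MIR21-KO replicate 2. In the limma fit without the filter, where 6.16% of all genes were called, 1 was called higher and 1 lower. The lower one was H19, with 15, 15 and 18 reads in Ctrl and 2, 1 and 0 reads in MIR21-KO (FDR = 0.00726). H19 lay below the filter of the main test and had more than 3 reads in Ctrl libraries only. MEG3, at the head of a large imprinted miRNA cluster, read 4.0, 3.64 and 4.26 FPKM in Ctrl and 7.05, 8.40 and 8.56 FPKM in MIR21-KO (0.99, FDR = 0.00133). FTX, from the X-inactivation centre, averaged 1.41 ± 0.136 and 2.76 ± 0.373 FPKM (0.92, FDR = 0.00543). Groups did not overlap for either gene.

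Of 18 genes that cut, export, load or degrade miRNA precursors, 17 were tested and 2 were called, with a median of -0.28, against 16% called of all genes. The count was 0 without Ctrl replicate 1, Ctrl replicate 2 or MIR21-KO replicate 2, 1 without Ctrl replicate 3 and 6 without MIR21-KO replicate 3. AGO4, an Argonaute gene, rose from 1.30 ± 0.131 to 2.96 ± 0.325 FPKM (1.12, FDR = 0.00221), and LIN28B fell as given above. Voom called 5 genes of this list, 1 higher and 4 lower, beside 21.8% of all genes. The lower ones were LIN28B, DROSHA (voom FDR = 0.00928), XPO5 (voom FDR = 0.00382) and RAN (voom FDR = 0.00345). In the main test DROSHA averaged 11.3 and 8.31 FPKM (FDR = 0.0221) and XPO5 8.98 and 5.93 FPKM (FDR = 0.0137). RAN averaged 176 and 132 FPKM (FDR = 0.0104), and none of these 3 was called there. DICER1, at 6.26 and 4.55 FPKM, was called neither there (FDR = 0.167) nor by voom (FDR = 0.0862).

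**Figure D5:**
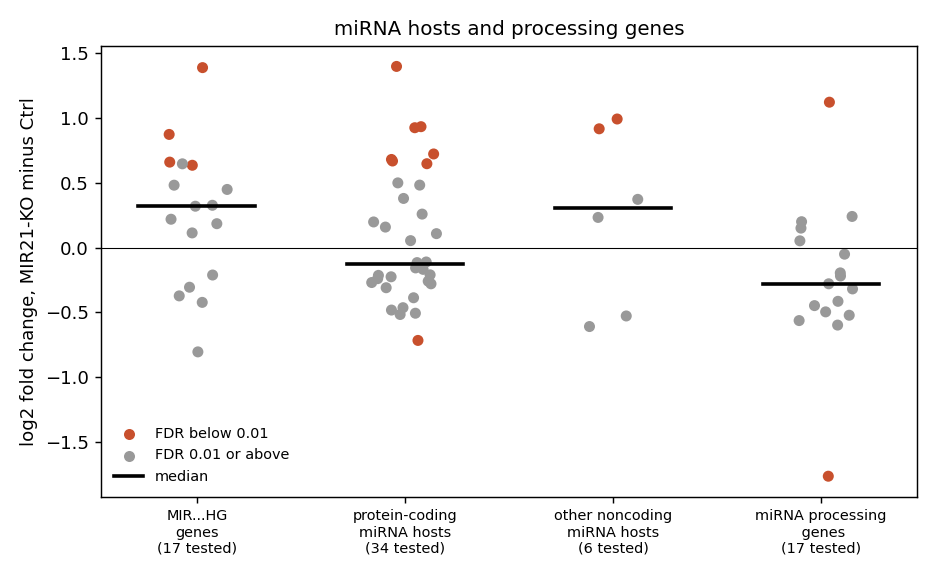
Log2 fold change (MIR21-KO minus Ctrl) of the tested genes in 4 lists, in red where the FDR was below 0.01, with black lines for list medians. The medians are 0.32 for MIR...HG genes, -0.13 for protein-coding hosts, 0.30 for other noncoding hosts and -0.28 for processing genes, and in each list most genes were not called.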

How the data were processed

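The 6 polyA RNA-seq libraries of A549 cells were grouped by their titles. The authors deposited FPKM per gene and library, together with their own log2 fold changes, p-values and FDRs, which were not used. The submitters' processing notes name cutadapt 1.14, HISAT2 2.1.0, SAMtools 1.5, featureCounts 1.5.3, edgeR 3.18.1 and hg38; the annotation, the strand setting and the treatment of reads shared between genes are not given in the sources used here. FPKM times gene length were whole multiples of 1 step per library for 100% of values (within 0.01), so reads could be recovered.

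limma 3.58.1 (R 4.3.3) was applied to log2(FPKM + 0.1) of genes averaging 0.5 FPKM or more (eBayes, trend, robust, no covariate, two-sided, Benjamini-Hochberg over 16006 genes, calls at FDR below 0.01). A fold change on this scale understates that of low genes. The test was checked on simulated data. Members and lists were chosen with earlier results of these data known. All tested hosts were to be named, and hosts below the filter if over 3 reads in every library of a group. Called genes of the other lists, VMP1, and neighbours of called hosts were to be named as well. DROSHA, DICER1, XPO5, RAN, LIN28A, H19, CYTOR, MIR155HG, MIR99AHG and overlapping genes of uncalled hosts were added after their values were seen. Positions came from GENCODE 29 by identifier (52 of 53 hosts matched; 45 had the tabled length), mature sequences from RefSeq. As alternatives, the replicate number was used as a block, each library was left out in turn, and filters, pseudocounts, scalings and thresholds were varied, besides limma without trend and robust fitting, and voom on recovered reads. The labels do not say that a replicate number marks a shared origin. Figures were drawn with matplotlib 3.10.9.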

Additional observations from a re-analysis of the deposited data

How the results depend on the processing

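Of the 4 called hosts MIR31HG was called under all 16 alternatives, MIR3142HG in 9, MIR4435-2HG in 8 and MIR22HG in 7, and the FDR of each stayed at or below 0.0423 with its direction unchanged. With the replicate block the host count was 1 (MIR31HG), without single libraries 1 to 3, and without the filter 2 (MIR31HG higher, MIR194-2HG lower, of 30 tested). Voom on recovered reads gave 6 (5 higher, 1 lower). Limma without trend and robust fitting gave 4 (3 higher, 1 lower), of which 2 were shared with the main test. It called 1946 of all 16006 genes, 1048 higher and 898 lower. The host counts of 6 and 4 both hold MIR100HG and MIR600HG, each of which passed the filter only through its higher group. MIRLET7BHG turned to -0.026 (FDR = 0.960) without Ctrl replicate 1, the lowest of its values without single libraries, of which 0.27 was the highest. In the same way KLHL9 ranged from -0.10 (without MIR21-KO replicate 3) to 0.24, and KRT7 from -0.012 (without MIR21-KO replicate 1) to 0.25. Over all genes the 2568 calls became 651 with the replicate block (649 shared), 784 to 3418 without single libraries and 5114 at an FDR below 0.05. With the block, 5898 of 16006 genes had an unadjusted limma p below 0.05. The 8 protein-coding hosts became 2 with the block and 1 to 10 without single libraries. The 2 other noncoding hosts became 0 with the block (3 at an unadjusted p below 0.05, limma) and 0 to 2 without single libraries. Without the filter 1 was called higher and 1, H19, lower. The 2 processing genes became 0 with the block (6 at an unadjusted p below 0.05, limma; voom without the block called 5), 0 to 6 without single libraries, 1 without the filter, 5 with voom and 5 at an FDR below 0.05. Deviations of libraries with the same replicate number correlated at -0.171, -0.0177 and -0.0174, so the numbers were not taken as pairs. Median-ratio and total-read scaling shifted the all-gene median log2 fold change by -0.006 and -0.036. Of the 17 tested hosts 12 had under 100 reads in at least 1 library, among them the called MIR3142HG (12 to 63 reads). Hosts below 1 FPKM had under 100 reads in every library. Such depth limits what can be seen.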
